A study of Malus domestica with 6 samples.

Results

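The chalcone synthase cluster on apple chromosome 4 comprised 3 gene IDs, MD04G1003000, MD04G1003300 and MD04G1003400, out of 52311 IDs measured in each library. All 3 IDs carried the description of the chalcone and stilbene synthase family and are separated by no more than a pair of other IDs in the ID order, so they are treated as copies of one enzyme gene. They were chosen from the genes already called higher in red flesh in these same libraries, so their red and white values are a description and carry no test. Messenger RNA was measured in mesocarp, the fleshy part of the fruit, of the red-flesh apple cv. 'R201' at 84 days after full bloom, with no treatment. The groups were 3 red-flesh libraries and 3 white-flesh libraries, lettered A to C, and per the labels each fruit gave both a red and a white piece. The study took the red pieces from the outer cortex and the white pieces from the inner cortex, so effects of colour and of position within a fruit cannot be told apart. The labels call the replicates semi-biological, with fruits from different trees of 1 cultivar, so p-values measure the spread between these samples only.

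Chalcone synthase is the entry enzyme of the flavonoid pathway. It joins a coumaroyl-CoA from the phenylpropanoid pathway with malonyl-CoA units to make naringenin chalcone, which chalcone isomerase closes to a flavanone. Flavanones then feed flavonols, flavan-3-ols and, through dihydroflavonol 4-reductase and anthocyanidin synthase, the anthocyanins that colour red apple flesh and skin. In apple, as in many plants, the enzyme is encoded by several similar genes.

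Each library held 25536185 to 26050906 estimated reads, and 28610 genes had enough reads to be tested. At an adjusted p under 0.05 by edgeR's quasi-likelihood test, 10.8% of the tested genes were called in either direction and 6.08% were called higher in red flesh. With the letter as a replicate block, these shares were 18.8% and 10.4%. In 14.9% of the tested genes all red-flesh libraries lay above all white-flesh libraries. Most of the listed markers of green tissue and of epidermis and cuticle also differed with flesh type. The gene descriptions at hand came from the study's list of genes called in this contrast. The counts of called markers are therefore no independent evidence of direction. Of 19 green tissue markers (subunits of photosystems, antennae and Rubisco) 16 were called higher in red flesh, and their summed level was 2487 to 2505 TPM in red flesh and 1477 to 1714 TPM in white flesh. All 3 epidermis and cuticle markers were called higher in red flesh, with a summed level of 35.6 to 63.0 TPM in red flesh and 18.6 to 22.3 TPM in white flesh. None of these markers was at 0 in all libraries, and their part in the levels of the chalcone synthases was not tested. In tissue pieces of this kind, fewer cells that express a gene and less RNA per cell cannot be told apart.

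All 3 copies were more abundant in red flesh than in white flesh in every letter pair, and they were among the most abundant transcripts of red flesh. Together they reached 3911, 3669 and 3819 TPM in red flesh A, B and C, against 1573, 1499 and 1477 TPM in white flesh A, B and C. TPM is a transcript level corrected for gene length and scaled to a fixed sum of 1000000 within each library. The summed level averaged 3800 ± 122 TPM in red flesh and 1517 ± 49.9 TPM in white flesh (SD, n = 3 each), and the groups did not overlap. This amounted to 0.391%, 0.367% and 0.382% of all TPM in red flesh A, B and C, against 0.157%, 0.150% and 0.148% in white flesh A, B and C. All 3 of the 3 copies were called higher in red flesh, beside 6.08% of all tested genes, a count that the choice of the IDs fixed.

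MD04G1003000, the shortest of the gene models with 1170 bases, had 1509, 1494 and 1459 TPM in red flesh A, B and C, against 753, 755 and 675 TPM in white flesh A, B and C. Its mean was 1487 ± 25.6 TPM in red flesh and 728 ± 45.6 TPM in white flesh (SD, n = 3 each). It varied little between libraries of 1 flesh type, with a coefficient of variation of 1.72% in red flesh and 6.26% in white flesh, and letter C was the lowest in both flesh types. By TPM it ranked 34, 33 and 36 among all IDs in red flesh A, B and C, and 101, 98 and 113 in white flesh A, B and C.

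MD04G1003300, with a model of 1511 bases, differed most between the flesh types. It had 1422, 1361 and 1530 TPM in red flesh A, B and C, against 410, 372 and 460 TPM in white flesh A, B and C. Its mean was 1438 ± 85.7 TPM in red flesh and 414 ± 44.1 TPM in white flesh (SD, n = 3 each). Letter C was the highest and letter B the lowest of its libraries in both flesh types. It ranked 38, 38 and 34 in red flesh A, B and C, close to MD04G1003000, but 252, 291 and 207 in white flesh A, B and C.

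MD04G1003400, with a model of 1515 bases, was the least abundant copy in red flesh. It had 980, 814 and 830 TPM in red flesh A, B and C, against 409, 373 and 343 TPM in white flesh A, B and C. Its mean was 875 ± 91.6 TPM in red flesh and 375 ± 33.4 TPM in white flesh (SD, n = 3 each). Red flesh A stood above the other red-flesh libraries, and the groups did not overlap. The same library also had the highest summed epidermis and cuticle markers, 63.0 TPM against 35.6 and 37.6 TPM in red flesh B and C. Of these markers, MD12G1187100 alone had 29.2, 11.5 and 11.7 TPM in red flesh A, B and C. White flesh A was likewise the highest white-flesh library for MD04G1003400. Whether any epidermal cells had a part in the level of MD04G1003400 was not tested.

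**Figure D1:**
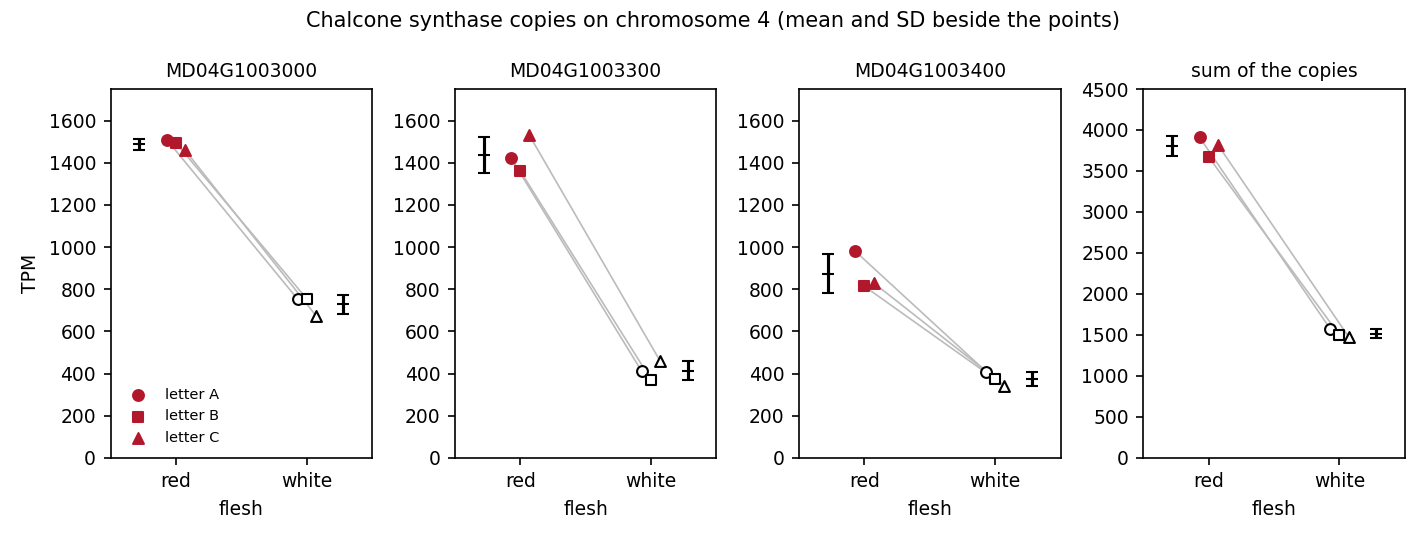
TPM of each chalcone synthase copy and of their sum (vertical axis; the sum has its own scale) in red flesh and white flesh, with 1 point per library, lines joining libraries of the same letter, and the mean and SD (n = 3) beside the points. Every red-flesh library lies above every white-flesh library in each panel, and MD04G1003000 and MD04G1003300 reach similar levels in red flesh but not in white flesh.

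The order of the copies by TPM was not the same in the 2 flesh types. In red flesh MD04G1003000 and MD04G1003300 did not differ beyond their spread, since MD04G1003000 was 1.06, 1.10 and 0.954 times as abundant as MD04G1003300 in A, B and C. Both were above MD04G1003400 in every red-flesh library, MD04G1003000 by 1.54 to 1.84 times and MD04G1003300 by 1.45 to 1.84 times. In white flesh MD04G1003000 stood above the other copies in every library, with 1.84, 2.03 and 1.47 times the TPM of MD04G1003300 in A, B and C. There MD04G1003300 and MD04G1003400 were level in A and B, at ratios of 1.00 and 0.996, and MD04G1003300 was 1.34 times as abundant in C.

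The estimated reads gave another order in red flesh, because they are not divided by length and the model of MD04G1003000 is the shortest. MD04G1003300 had 37894, 36462 and 41708 estimated reads in red flesh A, B and C, against 11173, 10104 and 12693 in white flesh. MD04G1003000 had 29408, 29373 and 28942 in red flesh, against 14999, 15053 and 13629 in white flesh. MD04G1003400 had 26206, 21868 and 22697 in red flesh, against 11191, 10177 and 9494 in white flesh. By reads, MD04G1003300 was thus the first copy in all red-flesh libraries and MD04G1003000 the first in all white-flesh libraries. The equal footing of these copies in red flesh by TPM rests on the length of the MD04G1003000 model, whereas the comparison of 1 copy between flesh types does not depend on length.

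The share of each copy in the summed reads shifted between the flesh types in the same direction in all 3 letter pairs. MD04G1003300 supplied 40.5%, 41.6% and 44.7% of the summed reads in red flesh A, B and C, against 29.9%, 28.6% and 35.4% in white flesh A, B and C. Its share was 10.9 ± 1.89 percentage points higher in red flesh (SD over 3 pairs), and the groups did not overlap. MD04G1003000 supplied 31.4%, 33.5% and 31.0% in red flesh A, B and C, against 40.1%, 42.6% and 38.1% in white flesh A, B and C. The groups again did not overlap, and the difference, red minus white flesh, was -8.28 ± 1.09 points.

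MD04G1003400 supplied 28.0%, 24.9% and 24.3% in red flesh A, B and C, against 30.0%, 28.8% and 26.5% in white flesh A, B and C. The difference was -2.66 ± 1.05 points, and here the groups overlapped, since red flesh A lay above white flesh C. By summed TPM the same shifts were 10.5 points for MD04G1003300, -8.81 points for MD04G1003000 and -1.71 points for MD04G1003400. The 95% Wilson intervals of the read shares were at most 0.516 points to either side, which covers counting error only and neither the division of reads among similar copies nor differences between fruits.

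**Figure D2:**
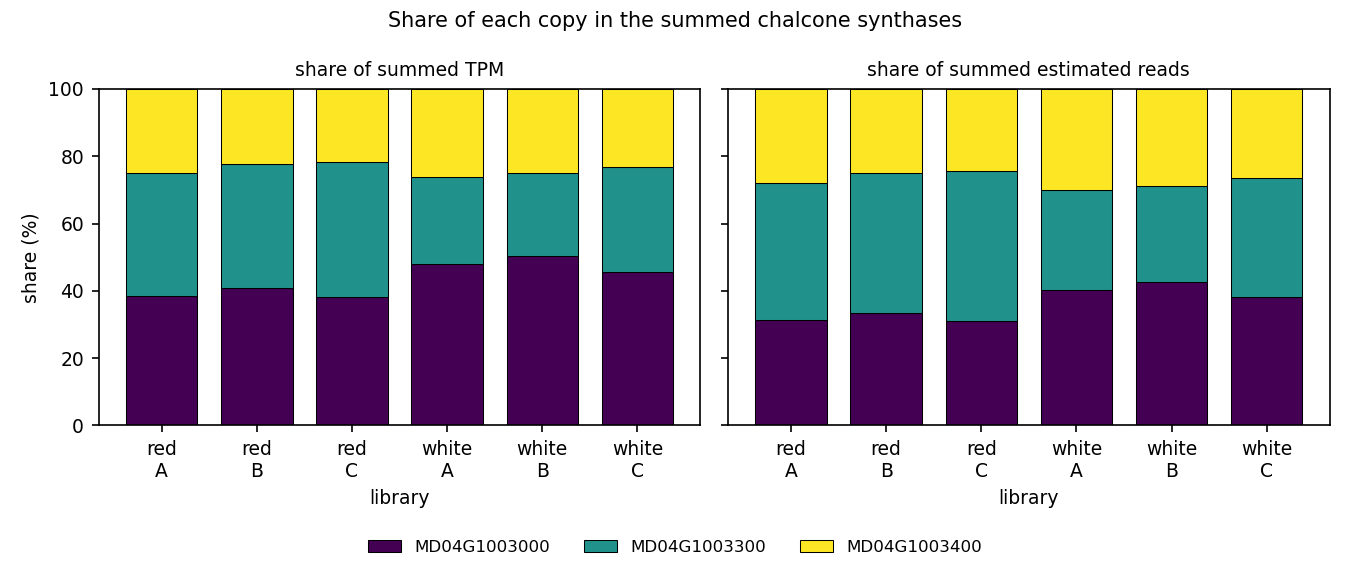
Share of each chalcone synthase copy (vertical axis, percent; stacked bars sum to 100) in the summed TPM (left) and in the summed estimated reads (right) of each library, red flesh first. The band of MD04G1003300 is wider in the red-flesh libraries, at 42.3 ± 2.16% of the reads, than in the white-flesh libraries, at 31.3 ± 3.63% (SD, n = 3 each).

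Within letter pairs, the ratio of red to white flesh was steady for each copy and different between copies. These ratios used CPM, estimated reads per 1000000 reads of a library whose size is scaled by edgeR's TMM factor. MD04G1003000 was 2.04, 1.97 and 2.13 times as abundant in red flesh in pairs A, B and C. MD04G1003300 was 3.54, 3.64 and 3.30 times as abundant, and MD04G1003400 was 2.44, 2.16 and 2.40 times as abundant. The ranges did not overlap. The pairs thus ordered the copies alike, with MD04G1003300 first, MD04G1003400 second and MD04G1003000 last.

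On the log2 scale the ratio of MD04G1003300 exceeded that of MD04G1003000 by 0.79, 0.89 and 0.63 in pairs A, B and C, a mean of 0.77 ± 0.13 (SD, n = 3), or 1.70-fold. It exceeded that of MD04G1003400 by 0.53, 0.75 and 0.46, a mean of 0.58 ± 0.15. The smallest gap was between MD04G1003400 and MD04G1003000, with 0.26, 0.14 and 0.17 and a mean of 0.19 ± 0.06. No test was made of these differences, and 3 pairs could not give a two-sided exact permutation p below 0.25.

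The sum of the copies, which does not depend on how reads were divided among them, was 2.61, 2.50 and 2.61 times as abundant in red flesh in pairs A, B and C. Its mean log2 ratio was 1.36 ± 0.04 (SD, n = 3), a 2.57-fold difference. The spread of the sum over the pairs was smaller than that of any single copy, for which the SD was 0.06 to 0.09.

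**Figure D3:**
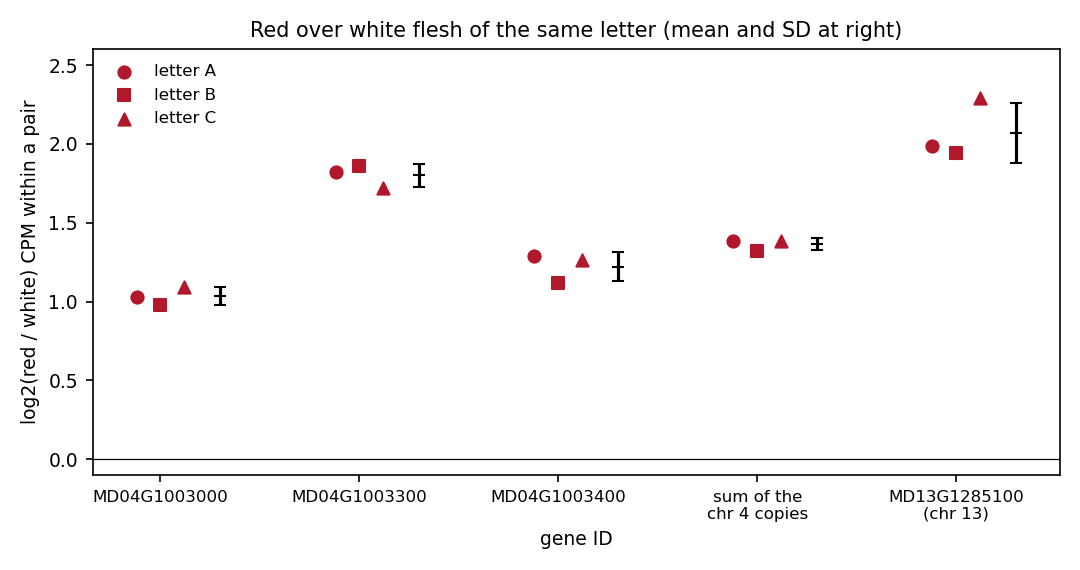
Log2 ratio of red to white flesh in CPM (vertical axis) within each letter pair for the 3 copies, their sum and the chalcone synthase MD13G1285100 on chromosome 13, with the mean and SD (n = 3) at the right of each set of points. The points of MD04G1003300, around 1.80, lie above those of MD04G1003400 (1.22) and MD04G1003000 (1.03), and the sum (1.36) has the narrowest spread.

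The fit across all genes gave log2 fold changes, red over white flesh, of 1.80 (SE 0.09) for MD04G1003300, 1.22 (SE 0.09) for MD04G1003400 and 1.03 (SE 0.07) for MD04G1003000. The median of these values was 1.22, beside -0.0045 over all tested genes. Of the 28610 tested genes, 116 had a higher log2 fold change than MD04G1003300, 298 a higher one than MD04G1003400 and 438 a higher one than MD04G1003000. Among the 1947 genes with a mean of at least 100 CPM, these numbers were 2, 8 and 18. These numbers cover only genes with a higher log2 fold change in the direction of red flesh, and the IDs had been chosen from genes called in that direction.

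The division of reads limits the values of single copies. Estimated reads need not be whole when a read matches several genes, and none of the 3 copies had a whole number of estimated reads in any of the 6 libraries, within a tolerance of 0.002. Neither the sum of the 3 copies nor that sum with MD13G1285100 was whole in any library, so these IDs do not form a closed set and the sum can hold parts of reads that other IDs also match. Within a flesh type, MD04G1003300 and MD04G1003400 deviated in opposite ways in letter C of white flesh, where MD04G1003300 was at its highest (460 TPM) and MD04G1003400 at its lowest (343 TPM). Their sum was 819, 745 and 802 TPM in white flesh A, B and C, with a coefficient of variation of 4.96%, against 10.7% for MD04G1003300 and 8.91% for MD04G1003400 alone. In red flesh the sum was 2401, 2175 and 2360 TPM in A, B and C, and its coefficient of variation of 5.22% was close to the 5.96% of MD04G1003300 alone and below the 10.5% of MD04G1003400 alone. Whether the division of reads between these models of nearly equal length contributed to that spread was not tested.

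MD13G1285100, the other ID described as a chalcone and stilbene synthase, was far less abundant than the cluster and had a larger ratio between flesh types. It had 111, 123 and 86.5 TPM in red flesh A, B and C, against 28.6, 31.9 and 17.5 TPM in white flesh A, B and C. Its mean was 107 ± 18.8 TPM in red flesh and 26.0 ± 7.57 TPM in white flesh (SD, n = 3 each). It was 3.96, 3.83 and 4.89 times as abundant in red flesh in pairs A, B and C by CPM, above the ratio of each chromosome 4 copy in every pair. The cluster held 35.2, 29.7 and 44.2 times its TPM in red flesh A, B and C, against 55.0, 46.9 and 84.5 times in white flesh A, B and C. Its description came from the study's list of genes called in this contrast, so its difference is given without a test too.

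The 42 IDs around and between the copies were not used in choosing them. Of these, 28 had enough reads to be tested and 14 did not. Of the 28, 5 (17.9%) were called by edgeR, 4 of them higher and 1 lower in red flesh, beside 10.8% of all tested genes. Their median log2 fold change was 0.05 and the range was -0.57 to 1.19. The IDs immediately before and after the cluster, MD04G1002900 and MD04G1003500, had log2 fold changes of 0.18 (adjusted p = 0.124, edgeR) and 0.06 (adjusted p = 0.687, edgeR). With the letter as a replicate block, 7 of the 28 were called by edgeR, beside 18.8% of all tested genes, and MD04G1002900 was among them (adjusted p = 0.0292) while MD04G1003500 was not (adjusted p = 0.619). The IDs between the copies were nearly silent, with 0 to 9 estimated reads per library for MD04G1003100 and 0 to 6.22 for MD04G1003200, and were not tested.

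Of the called neighbours, MD04G1002700, described as a protein kinase and 3 IDs before the cluster, had 63.8, 63.2 and 64.0 CPM in red flesh A, B and C, against 46.3, 42.1 and 42.0 CPM in white flesh A, B and C. It rose by 0.55 on the log2 scale (SE 0.06, adjusted p = 0.00028, edgeR). MD04G1004900, described as a glutathione-disulfide reductase, an enzyme that recycles glutathione, had 113, 108 and 109 CPM in red flesh, against 86.4, 87.7 and 82.8 CPM in white flesh. It rose by 0.36 (SE 0.06, adjusted p = 0.00194, edgeR). In both, all red-flesh libraries lay above all white-flesh libraries, as in 14.9% of all tested genes. Their changes were well below those of the synthases.

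MD04G1002500, described as a cytochrome P450 and 5 IDs before the cluster, had 7.88, 3.93 and 3.83 CPM in red flesh A, B and C, against 3.08, 2.05 and 1.70 CPM in white flesh A, B and C. Its log2 fold change of 1.19 (SE 0.30, adjusted p = 0.0281, edgeR) was the largest among the neighbours. Letter A was the highest library in both flesh types. Leaving out red flesh A gave an adjusted p of 0.0967 by edgeR, leaving out white flesh B 0.105 and leaving out white flesh C 0.0627. With the letter as a replicate block the adjusted p was 8.64e-05 by edgeR, and without it 0.00114 by DESeq2. MD04G1004800, which has no description, had 40.3, 39.3 and 38.0 CPM in red flesh against 33.5, 33.8 and 32.8 CPM in white flesh. Its log2 fold change of 0.23 (adjusted p = 0.0273, edgeR) missed the threshold when any 1 library was left out, with adjusted p of 0.0542 to 0.109 by edgeR. With the letter as a replicate block the adjusted p was 0.0091 by edgeR. MD04G1001100, also without a description, was the called ID that fell, with 9.33, 11.1 and 10.3 CPM in red flesh against 14.4, 14.3 and 14.8 CPM in white flesh and a log2 fold change of -0.50 (SE 0.09, adjusted p = 0.00486, edgeR).

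**Figure D4:**
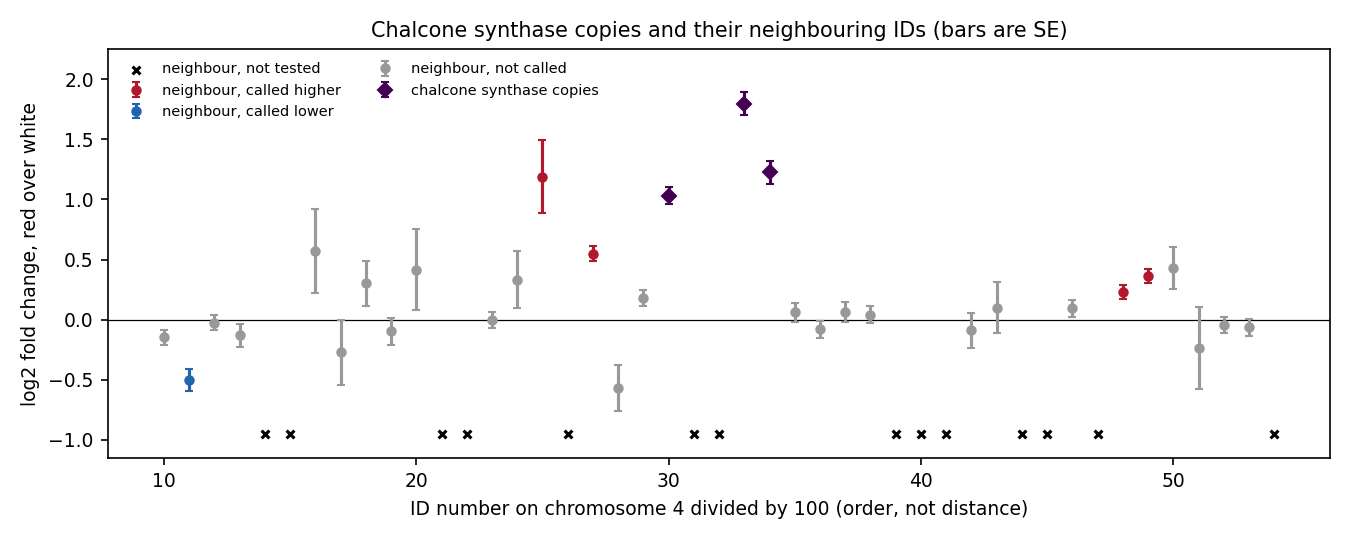
Log2 fold change, red over white flesh, with its SE (vertical axis) for the chalcone synthase copies and the neighbouring IDs tested, in the order of their IDs on chromosome 4; crosses mark IDs with too few reads to be tested. The copies lie at 1.03 to 1.80, while the neighbours range from -0.57 to 1.19 with a median of 0.05.

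Most tested IDs of the enzymes that supply and follow chalcone synthase were also called higher in red flesh. Over the lists of these enzymes, which leave out MD13G1285100, 21 of the 24 tested IDs were called higher by edgeR and 0 lower, beside 6.08% of all tested genes called higher. Outside the flavan-3-ol and flavonol branches, nearly all listed IDs got their description from the study's genes called in this contrast. The branch IDs are ones that the study reported as not differentially expressed. These counts are therefore no independent evidence of direction or of a difference between lists. None of the summed levels of these lists overlapped between the flesh types. For the flavan-3-ol and flavonol branches the gap was narrow, with at least 78.3 TPM in red flesh and at most 77.1 TPM in white flesh. By CPM, all red-flesh libraries lay above all white-flesh libraries in 14.9% of all tested genes. That share is of single genes and not of summed lists.

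Of the suppliers, both acetyl-CoA carboxylase IDs, whose enzyme makes malonyl-CoA, were called higher, with MD08G1178000 at 32.2 ± 2.26 TPM in red flesh and 17.4 ± 1.45 TPM in white flesh and MD15G1363500 at 14.5 ± 0.221 TPM in red flesh and 10.7 ± 0.992 TPM in white flesh (SD, n = 3 each). Their sum was 44.0 to 48.6 TPM in red flesh and 25.3 to 29.9 TPM in white flesh. All 7 IDs of the phenylpropanoid entry, which leads from phenylalanine to coumaroyl-CoA, were called higher. Their log2 fold changes ranged from 0.31 to 2.17, with a median of 0.53. Their summed level was 1743 to 1931 TPM in red flesh and 1000 to 1142 TPM in white flesh. The most abundant were the cinnamate 4-hydroxylases MD11G1052900, with a log2 fold change of 0.42 (SE 0.07), and MD00G1221400, with 0.53 (SE 0.07), and the phenylalanine ammonia lyase MD04G1096200, with 1.58 (SE 0.10). Only the last of these 3 had a log2 fold change in the range of the synthases.

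Chalcone isomerase acts on the product of the synthases, and the 5 IDs described as its family were all called higher, with a median log2 fold change of 0.73. MD01G1167300, the most abundant, had 710 ± 62.5 TPM in red flesh and 427 ± 27.8 TPM in white flesh (SD, n = 3 each). MD07G1186300 and MD07G1233400 had log2 fold changes of 1.14 (SE 0.10) and 0.80 (SE 0.07). The 5 isomerase IDs summed to 1177 to 1380 TPM in red flesh and 663 to 763 TPM in white flesh. The chromosome 4 synthases held 3.10, 2.66 and 3.25 times the TPM of these 5 IDs in red flesh A, B and C, against 2.18, 1.97 and 2.23 times in white flesh A, B and C. The synthases thus outweighed these IDs in all libraries and by more in red flesh. Descriptions were held only for the study's called genes, so other isomerase IDs may be missing from this sum.

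Of the 6 IDs of later anthocyanin steps, 6 were called higher. Their median log2 fold change was 1.33 (range 0.92 to 2.96), beside a median of 1.22 for the 3 synthase copies. The 6 IDs summed to 1673 to 1955 TPM in red flesh and 726 to 818 TPM in white flesh. The dihydroflavonol 4-reductase MD15G1024100, which reduces dihydroflavonols on the way to anthocyanins, had 1032 ± 68.3 TPM in red flesh and 477 ± 26.6 TPM in white flesh (SD, n = 3 each). The flavanone 3-hydroxylase MD02G1132200 had a log2 fold change of 1.05 (SE 0.09), and the leucoanthocyanidin dioxygenase MD06G1071600 had 1.55 (SE 0.11).

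Flavonols are made from dihydroflavonols, and flavan-3-ols from leucoanthocyanidins or anthocyanidins, so the branches to both leave the pathway after the flavanones. Of their 7 IDs, 4 were tested and 1 was called higher, beside 6.08% of all tested genes, namely the anthocyanidin reductase MD01G1077800, with a log2 fold change of 0.39 (SE 0.11). That call was lost without white flesh A or B or without any 1 of the red-flesh libraries, with adjusted p of 0.0785 to 0.144 by edgeR. It held with the letter as a replicate block (adjusted p = 0.00474, edgeR) and by DESeq2 (adjusted p = 0.0216). The flavonol synthase MD15G1353800, at 31.5 ± 2.03 TPM in red flesh and 35.1 ± 4.03 TPM in white flesh (SD, n = 3 each), and the anthocyanidin reductase MD05G1335600, with a log2 fold change of 0.29 (SE 0.12), were not called. The summed level of the branches was 78.3 to 85.1 TPM in red flesh and 72.4 to 77.1 TPM in white flesh.

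**Figure D5:**
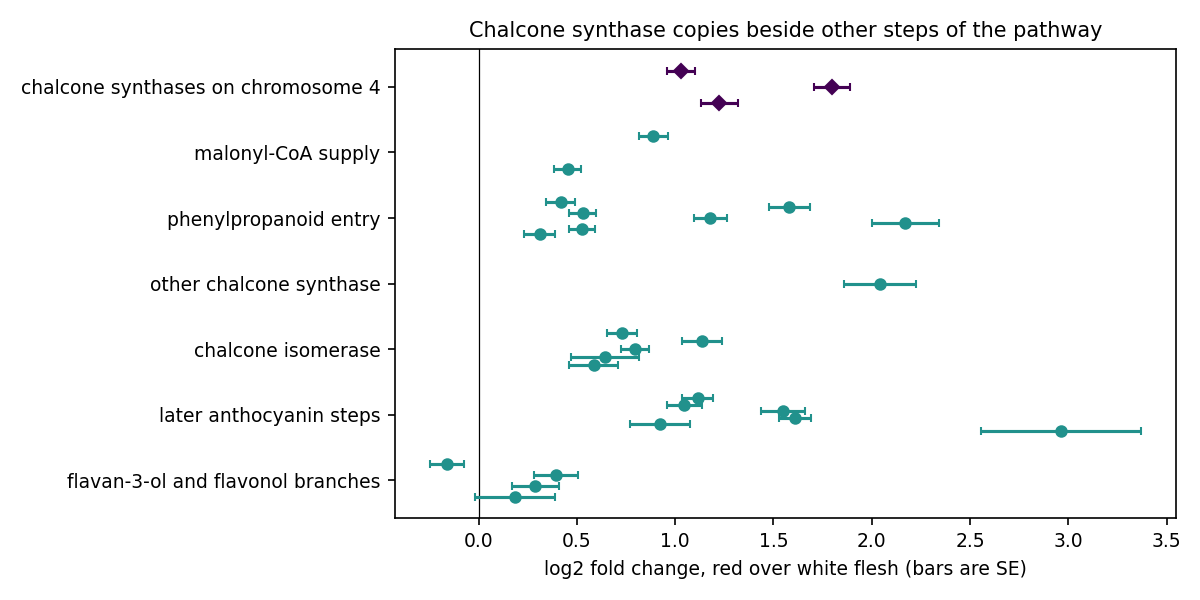
Log2 fold change, red over white flesh, with its SE (horizontal axis) of the chalcone synthase copies on chromosome 4 and of the tested IDs of the other pathway lists, 1 point per ID. The median is 1.22 for the copies, 0.73 for the isomerases, 1.33 for the later anthocyanin steps and 0.24 for the flavan-3-ol and flavonol branches. The branch IDs were reported by the study as not differentially expressed, and most other IDs came from its called genes. The gap between these medians thus follows in part from how the lists were drawn.

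The copies also differed in how closely their profiles over the 6 libraries matched each other. Likeness was taken as the root mean square difference of log2 CPM profiles, each centred on its own mean, so that a value of 0 is an identical profile. MD04G1003000 and MD04G1003400 were the most alike, at 0.13, MD04G1003300 was 0.34 from MD04G1003400, and MD04G1003300 and MD04G1003000 were the least alike, at 0.41. Against the sum of the copies, MD04G1003400 was the nearest at 0.11, followed by MD04G1003000 at 0.18 and MD04G1003300 at 0.24.

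Of 14420 genes with a mean of at least 10 CPM, the 6 nearest in profile to the summed copies lay at 0.087 to 0.136. They were MD08G1218900 (described as UDP-glucosyl transferase 88A1, of a family that attaches sugars to small molecules, 0.087), MD14G1190200 (RmlC-like cupin, 0.0905), MD08G1084500 (alpha/beta-hydrolase, 0.106), MD00G1095600 (silencing defective 5, 0.113), MD07G1206400 (subtilase family, 0.134) and MD03G1029100 (cellulose synthase like E1, 0.136). The nearest, MD08G1218900, had 14.9, 14.3 and 13.9 CPM in red flesh A, B and C, against 5.85, 6.07 and 5.08 CPM in white flesh A, B and C. Among the pathway IDs named above, the dihydroflavonol 4-reductase MD15G1024100 ranked 9 at 0.143 and the phenylalanine ammonia lyase MD04G1096200 ranked 20 at 0.175. MD13G1285100 ranked 463 at 0.469, farther from the summed copies than they were from one another. Since the 6 libraries fall into 2 groups, the ranking is a description of profiles that share the split between flesh types, and no test was made of it.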

How the data were processed

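For every library the authors deposited a table of salmon's format, giving for each gene ID an estimated count of reads, a TPM value, an effective length and a length. The estimated counts deposited by the authors divide reads that match several genes. The deposited TPM values are scaled by effective length within a library, sum to 1000000 and were described but not tested. The version and settings of the quantifier were not given in the sources used. Libraries were poly(A)-enriched and strand-marked.

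Estimated counts were rounded to whole numbers. The quasi-likelihood test of edgeR (4.0.16, under R 4.3.3) set red against white flesh, with TMM normalisation, its expression filter and flesh type as the only term. The study's methods name DESeq2 with white flesh as control and state no pairing term. Two-sided p-values were adjusted after Benjamini and Hochberg over 28610 genes, and calls were made where the adjusted p was under 0.05. Profiles, shares and pair ratios were computed in Python 3.11.15. The test was tried on data made with known fold changes.

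The letters were taken as pairs, because per the labels each fruit gave both flesh types. Deviations from the group means correlated across genes at 0.27, 0.23 and 0.23 between libraries of the same letter and at 4e-04 or lower between letters. Since each group was centred on its own mean, the values between letters are not independent of those of the same letter.

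The members and lists were chosen with earlier results of these data known. The named genes were the 3 copies, MD13G1285100, called neighbours within 20 IDs of the cluster (without a description, at most 2 higher and 2 lower), up to 3 pathway IDs per list by highest mean CPM, and the 6 genes nearest in profile. The IDs directly flanking or lying between the copies were named after their values were seen. Descriptions were held for 1998 IDs, from the study's list of called genes. None of the IDs matched the RefSeq table at hand (0 matches), so no sequences or coordinates are given. Alternatives were DESeq2 (1.42.0, the study's tool), DESeq2 size factors, no expression filter, the letter as a replicate block, each library left out, 10 IDs on each side, scaling by library total, TPM in place of CPM or reads, and a floor of 50 CPM for profiles.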

Additional observations from a re-analysis of the deposited data

How the results depend on the processing

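All copies stayed higher in red flesh under every alternative run. Their log2 fold changes ranged from 0.98 to 1.05 for MD04G1003000, 1.72 to 1.88 for MD04G1003300 and 1.12 to 1.29 for MD04G1003400. The extremes came from leaving out white flesh B (1.72) or white flesh C (1.88) for MD04G1003300 and red flesh A (1.12) or white flesh A (1.29) for MD04G1003400. The mean log2 ratio of the summed copies was 1.33 by TPM, against 1.36 by CPM, and 1.35 to 1.39 when each letter pair was left out. When each letter pair was left out, the difference in read share was -8.90 to -7.87 points for MD04G1003000, 9.93 to 11.8 for MD04G1003300 and -3.03 to -2.06 for MD04G1003400. The number of genes called was 3080. With the letter as a replicate block, which uses the pairing, it was 5382, and it was 1607 to 3147 when each library was left out, with 1607 without red flesh A, 1644 without white flesh B and 2013 without red flesh C. DESeq2 called 2737 genes. Among the neighbours, 7 were called with the replicate block, 3 to 5 when each library was left out (3 without white flesh B, white flesh C or red flesh A) and 2 with 10 IDs on each side. MD04G1004800 was not called by DESeq2 (adjusted p = 0.0704). The pathway lists, with MD13G1285100 counted, had 22 IDs called higher, and 18 to 21 when each library was left out, and 0 called lower. With a floor of 50 CPM, 2 of the 6 genes nearest in profile were shared, since the floor removes lower genes. Beside MD04G1002900, the replicate block changed no other call of a neighbour or pathway ID named in the text; it called all 19 green tissue markers, 18 of them higher in red flesh. The depth does not limit the values of the copies, each of which had at least 9494 estimated reads in every library.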
